A study of Mus musculus with 3 samples.

Results

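Goblet cells of the inflamed mouse colon were described here in 3 single-cell libraries, 1 for each antibody given. A barcode counted as a goblet cell when it held at least 10 unique molecular identifiers (UMIs, counted RNA molecules) and at least 1% of its UMIs in 6 goblet product genes, Muc2, Spink4, Zg16, Fcgbp, Clca1 and Tff3. It also had to hold at least 1 UMI of the epithelial genes Epcam, Krt8 and Krt19, no more than 1 UMI of the enteroendocrine genes Chga, Chgb and Tph1, and no more than 1 UMI of the division genes Mki67, Top2a and Birc5. By this rule 1405 of 19109 kept barcodes were goblet cells, 490 from the DATK32 library, 262 from the MECA-367 library and 653 from the rat IgG library. The 6 product genes chose the cells, so the members were selected on these measured values and the levels of those genes are given only as a description.

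All mice were C57/BL6J with acute colitis from dextran sulfate sodium (DSS), a polymer that injures the colon lining, given in drinking water at 1.5% for 7 days and followed by 3 days of plain water. Mice of every group received 250 µg of antibody into the peritoneum 3 times a week, which was DATK32, MECA-367 or the control rat IgG. The antibodies act on the homing of leukocytes to the gut, and the labels name a clinical antibody for which each stands as surrogate; that pairing is the reverse of the usual description of these clones, so the groups are named by clone only. Age, sex and the number of mice behind each library are not given in the sources used here. With 1 library a group there is no replicate check, and each interval given covers counting error only. Both antibody libraries were set against the same rat IgG library, so those comparisons share its errors.

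Goblet cells are the secretory cells of the colon that make its mucus. They fold and glycosylate the gel-forming mucin Muc2 in an enlarged endoplasmic reticulum and Golgi, store it in granules and release it at the surface, together with proteins that bind bacteria. Atoh1 commits progenitors to the secretory fate when Notch signalling is low, Spdef drives goblet maturation, and cytokines from immune cells change which products the cells make. In DSS colitis the mucus layer thins and goblet cells are known to be lost or emptied.

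The labels describe sorted viable CD45+ lamina propria cells, and goblet cells carry no CD45. Ptprc, the CD45 gene, was at 10.8, 25.1 and 12.3 counts per 1000000 UMIs (CPM) in the goblet cells of the DATK32, MECA-367 and rat IgG libraries, against 1197, 1051 and 1166 CPM in leukocyte barcodes of the same libraries. The leukocyte barcodes were themselves chosen by a Ptprc UMI, so this contrast is only a description. By the genes of the rule, the goblet barcodes are epithelial cells in libraries labelled as sorted leukocytes. Their share of a library depends on how many passed that sort. Goblet cells held 2879509 UMIs in the DATK32 library, 2031702 in the MECA-367 library and 2611030 in the rat IgG library, with medians of 5714.5, 7726.5 and 3690 UMIs a cell. Barcodes shared between pairs of libraries numbered 18 to 20, and 0 of them were goblet cells in both.

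Within the rule were 46 barcodes with 1% or more of their UMIs in genes of another cell type, 6 in the DATK32 library, 16 in the MECA-367 library and 24 in the rat IgG library. Of these, 13 went against the goblet name. They held 33.9 to 44.2% of their UMIs in 12 pancreatic enzyme genes, met the rule through Zg16, a gene of goblet granules and of pancreatic zymogen granules, and 0 of the 13 had a Muc2 UMI. None was in the DATK32 library, 1 was in the MECA-367 library and 12 were in the rat IgG library. The others carried neutrophil genes (2, 11 and 6 barcodes in the DATK32, MECA-367 and rat IgG libraries), plasma cell genes (3, 4 and 4) or stromal genes (1, 0 and 2). Counts are given for all 1405 members, and again for the remaining 1359 where a list's count of called genes differed.

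Muc2 was found in 1389 of the 1405 members, at 24697, 22302 and 21045 CPM in DATK32, MECA-367 and rat IgG goblet cells. Spink4, a small secreted protein of goblet cells with a protease inhibitor domain, was at 9608, 8238 and 7657 CPM. Zg16, a lectin that binds Gram-positive bacteria, varied more, at 1003, 5079 and 2488 CPM, and at 1003, 5000 and 2239 CPM without the 13 pancreatic enzyme barcodes. It was present in only 11.02%, 15.6% and 21.4% of the cells. Tff3, a trefoil peptide of mucosal repair, was at 1281, 2543 and 1947 CPM. Fcgbp, a mucus component that is linked to Muc2, was at 105, 251 and 161 CPM, and Clca1, a metalloprotease that processes Muc2, at 46.5, 266 and 104 CPM. These 6 genes chose the cells, and their differences between libraries are not read as results.

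Goblet genes that the rule did not use were high in the same cells. Agr2, a protein disulfide isomerase needed for Muc2 folding, was at 10135, 13026 and 9479 CPM in DATK32, MECA-367 and rat IgG goblet cells, against 622, 713 and 775 CPM in the other epithelial barcodes. The transcription factor Spdef was at 382, 409 and 476 CPM, against 22.2, 23.2 and 32.4 CPM in other epithelium. Atoh1 was at 284, 332 and 264 CPM, against 14.8, 13.8 and 14.9 CPM. The 6 markers of surface colonocytes summed to 1919, 1827 and 1897 CPM in goblet cells, against 968, 799.8 and 995 CPM in other epithelium. Most of the goblet sum was Guca2a, at 1758, 1742 and 1712 CPM, while Aqp8 of the same list had 0, 0.492 and 0 CPM. Lgr5 of stem cells was at 2.43, 3.45 and 1.53 CPM.

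**Figure D1:**
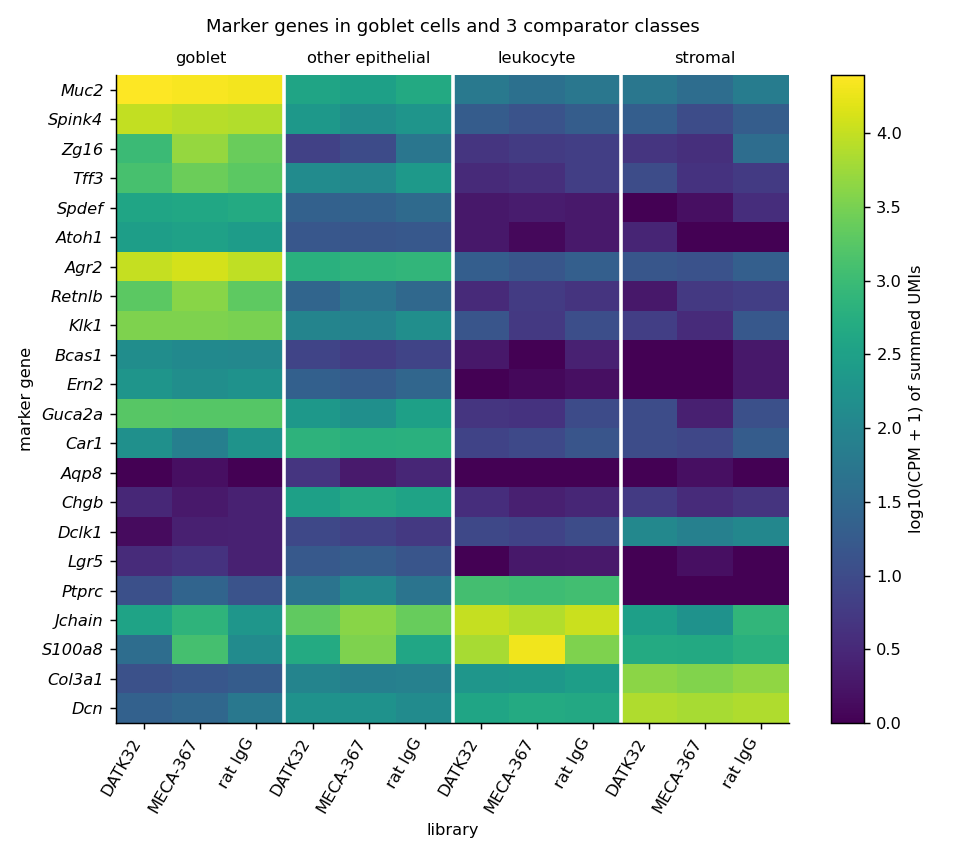
Level of goblet and other marker genes, in CPM on a log scale, in goblet cells and in other epithelial, leukocyte and stromal barcodes of each library. Goblet genes the rule did not use, such as Agr2, Spdef and Atoh1, stood above the other epithelium in all 3 libraries.

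Among 3689 genes with at least 300 goblet UMIs, 141 were at least 4 times as high in goblet cells as in other epithelium in every library, and 135 of those were outside the rule. The examples that follow were chosen after their values were seen. Retnlb, a bactericidal goblet cell protein, was at 1941, 4127 and 2030 CPM in goblet cells and at 25.9, 48.4 and 29.2 CPM in other epithelium of the DATK32, MECA-367 and rat IgG libraries. Mucin glycosylation was represented by B3gnt6, which builds the core 3 sugar of Muc2, at 107, 88.6 and 84.6 CPM against 0.534, 0.719 and 2.36 CPM. Klk1, a secreted protease, was at 3532, 3533 and 3281 CPM against 95.7, 87.9 and 145 CPM, and the chemokine Ccl6 at 1066, 1371 and 1044 CPM against 23.9, 42.6 and 34.5 CPM. These contrasts follow from how the cells were chosen and carry no test.

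The boundary of the rule cut through a continuum. Members with 1 to 1.5% of UMIs in the product genes numbered 56, 33 and 95 in the DATK32, MECA-367 and rat IgG libraries, and their Agr2 was at 7699, 13408 and 7264 CPM. Barcodes just outside, with 0.5 to 1%, numbered 41, 20 and 94, and their Agr2 was at 7416, 8357 and 5402 CPM. Spdef was at 330, 316 and 327 CPM just inside and at 224, 258 and 259 CPM just outside. A further 2, 1 and 5 barcodes reached 1% but held only 5 to 9 product UMIs.

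Goblet cells made up a similar part of the DATK32 and rat IgG libraries and a smaller part of the MECA-367 library. They were 8.37% of kept barcodes with DATK32 (exact Clopper-Pearson 95% interval 7.68 to 9.11), 4.45% with MECA-367 (3.94 to 5.01) and 8.86% with rat IgG (8.22 to 9.54). A difference was called when it reached 1.5-fold with intervals apart. The share was lower in MECA-367 than in rat IgG (ratio 0.502) and higher in DATK32 than in MECA-367 (ratio 1.88), while the DATK32 to rat IgG ratio of 0.945 was not called. Among epithelial barcodes, those with at least 3 UMIs of Epcam, Krt8 and Krt19, goblet cells were 22.4% with DATK32 (485 of 2168, 20.6 to 24.2), 17.5% with MECA-367 (255 of 1457, 15.6 to 19.6) and 23.1% with rat IgG (621 of 2683, 21.6 to 24.8). The ratios on that base, 0.967 for DATK32 over rat IgG, 0.756 for MECA-367 over rat IgG and 1.28 for DATK32 over MECA-367, were not called. With a mitochondrial limit of 5% the DATK32 to MECA-367 share ratio was 0.49 on the log2 scale and no longer called. The mitochondrial limit also removed barcodes that met the goblet rule, 188 with DATK32, 183 with MECA-367 and 279 with rat IgG, or 27.7%, 41.1% and 29.9% of all that met it. The part of the sort and of this limit in the shares was not tested.

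**Figure D2:**
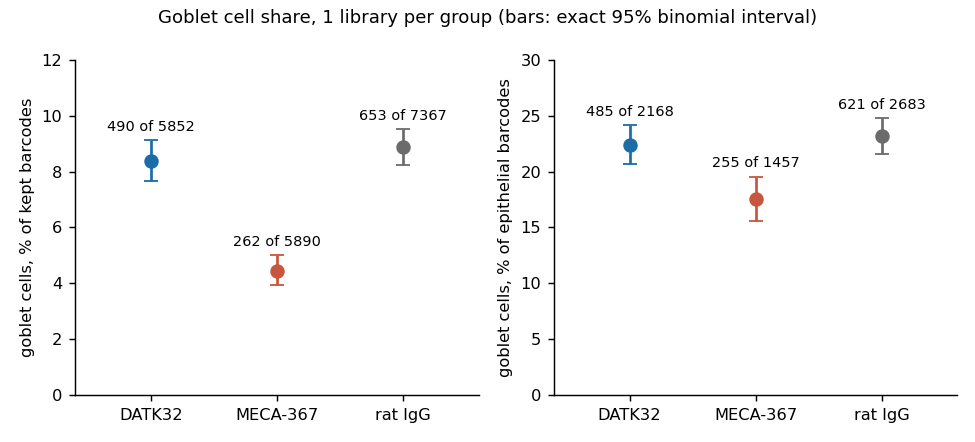
Goblet cells as a percentage of kept barcodes and of epithelial barcodes in each library, with exact 95% binomial intervals. The MECA-367 point lies at 4.45% of kept barcodes, against 8.37% with DATK32 and 8.86% with rat IgG.

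Few genes of the secretory machinery were called in any comparison. Gene by gene, UMIs were summed over the goblet cells of a library and 8983 genes with at least 50 summed UMIs were compared, with a call at 1.5-fold and exact Poisson intervals apart. Across all of them, 0.657% of genes were called higher and 1.48% lower with DATK32 than with rat IgG, and 1.85% were called higher and 2.77% lower with MECA-367 than with rat IgG. Between the antibodies, 2% were higher and 2.26% lower in DATK32 than in MECA-367. The median log2 ratios over all genes were -0.00, -0.03 and 0.03 in these comparisons, in the order given. Many single calls depended on the processing: of 141 called ratios of named genes, 36 kept their call in every alternative setting in which the gene was measured, and 29 of the 132 still measured lost it without the mixed barcodes.

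Of 19 measured transcription factors of the goblet lineage, 0 were called in any comparison, with median log2 ratios of 0.05, -0.01 and 0.12 in the same order. Creb3l1, which controls secretory capacity, was at 577, 418 and 540 CPM in DATK32, MECA-367 and rat IgG goblet cells. Klf4, needed for colonic goblet differentiation, was at 840, 634 and 740 CPM. Of 31 genes of endoplasmic reticulum folding and the unfolded protein response, 0 were called against rat IgG with either antibody, and 1, the chaperone cofactor Sdf2l1, was lower in DATK32 than in MECA-367 (77.4, 122 and 85.0 CPM, log2 -0.66), a call kept in 7 of 13 alternative settings. The chaperone Hspa5 was at 1843, 2225 and 1992 CPM, and Ern2, the epithelial stress sensor of mucous cells, at 194, 145 and 175 CPM.

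Among 37 mucin glycosylation genes, 1 was lower in DATK32 than in rat IgG and 2 were lower in MECA-367 than in rat IgG. Papss2, which makes the sulfate donor, was the gene lower with both antibodies, at 33.7 CPM with DATK32, 34.5 with MECA-367 and 52.1 with rat IgG (log2 -0.62 and -0.59). The DATK32 call was kept in 10 of 11 alternative settings and the MECA-367 call in 6 of 11. Galnt10, an enzyme that starts O-linked sugar chains, was at 210, 130 and 199 CPM, lower in MECA-367 than in rat IgG (log2 -0.61) and higher in DATK32 than in MECA-367 (0.69). The call against rat IgG was kept in only 4 of 13 settings. Without the mixed barcodes 0 of 37 were called lower in MECA-367 than in rat IgG, with Papss2 at -0.54 and Galnt10 at -0.55 on the log2 scale. With all members the list medians were 0.04, 0.03 and 0.01 in the 3 comparisons. Gcnt3, which branches mucin sugars, was at 499, 507 and 450 CPM, and Fut2, which adds terminal fucose, at 286, 260 and 255 CPM, with no call.

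Of 28 genes of granule transport and exocytosis, 1 was called against rat IgG with each antibody. Best2, a bicarbonate channel of colonic goblet cells that is also in the ion list, was lower with DATK32, at 12.8 CPM against 29.9 CPM in rat IgG (log2 -1.20), with 20.7 CPM in MECA-367. Nlrp6, an inflammasome sensor tied to mucus release in mice, was at 29.9, 16.7 and 34.5 CPM, lower in MECA-367 than in rat IgG (-1.02) and higher in DATK32 than in MECA-367 (0.81). Without members that carried a leukocyte, stromal or endothelial UMI these ratios were -0.36 and 0.10 and neither was called. Other epithelium held more Nlrp6, 148, 146 and 155 CPM. Scin, an actin-severing protein, and Capn9, a calpain, were lower in DATK32 than in MECA-367 (-0.62 and -1.11), calls kept in 10 of 13 and 5 of 9 settings. Among 16 ion and water transport genes, Scnn1b, a subunit of the epithelial sodium channel, was higher in MECA-367 than in rat IgG, at 17.0, 22.6 and 10.3 CPM (log2 1.11), and the carbonic anhydrase Car1 was the 1 gene lower in that comparison. Car1 UMIs lay mostly in few cells, with 85.4%, 82.3% and 62.0% in 5 cells of the DATK32, MECA-367 and rat IgG libraries, and its MECA-367 to rat IgG ratio of -1.17 was 0.88 at the 5% product limit. The Scnn1b call was lost at that limit and without members that carried a leukocyte, stromal or endothelial UMI.

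**Figure D3:**
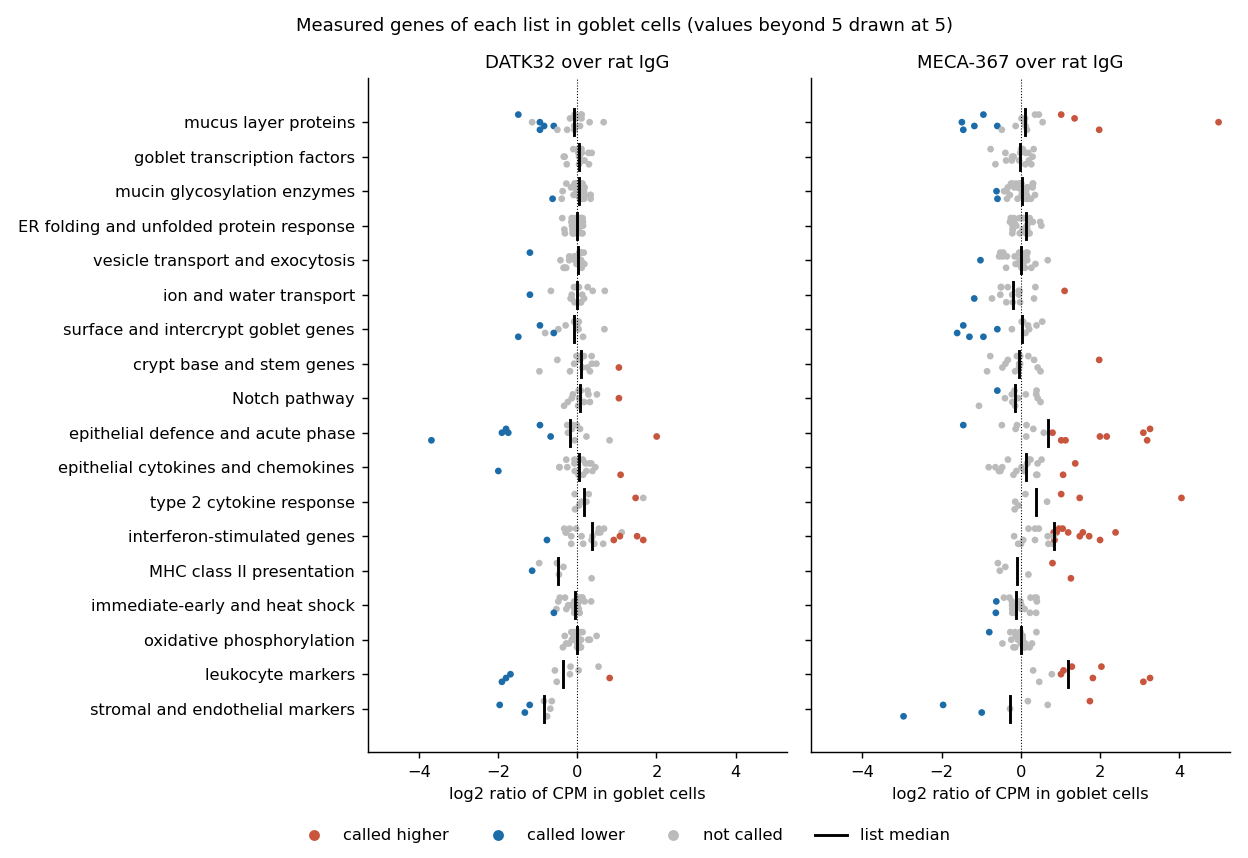
Log2 ratios in goblet cells of the measured genes of each list, with the list median, for DATK32 over rat IgG and for MECA-367 over rat IgG, with values beyond 5 drawn at 5. Lists of the secretory machinery sit near 0, and the interferon-stimulated genes have medians of 0.38 and 0.83.

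Several secreted products of the mucus layer were called. Of 20 measured genes of the mucus layer, 0 were higher and 5 lower in DATK32 than in rat IgG (Dmbt1, Lypd8, Sval1, Muc3 and Tff2). With MECA-367, 4 were higher than with rat IgG (Retnlb, Reg4, Ang4 and Ltf, a neutrophil granule gene) and 5 lower (Dmbt1, Muc5b, Ccn3, Muc3 and Tff2). Between the antibodies, 1 was higher in DATK32 than in MECA-367 (Muc5b) and 6 were lower (Retnlb, Reg4, Ang4, Sval1, Lypd8 and Ltf). The medians of the list were -0.07, 0.10 and -0.19. Without the mixed barcodes, where 19 were measured and Ltf was not, 1 was higher and 5 were lower in DATK32 than in rat IgG, 4 were higher and 3 lower in MECA-367 than in rat IgG, and 3 were higher and 5 lower in DATK32 than in MECA-367. Tff2, a gastric trefoil peptide, had 65, 36 and 106 UMIs, all from 1 cell with DATK32, 1 cell with MECA-367 and 13 cells with rat IgG. Without the mixed barcodes it had 65, 0 and 1 UMIs, so that its call in DATK32 against rat IgG, lower over all members (log2 -0.84), turned to higher.

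Retnlb had 1941 CPM (95% interval 1890 to 1992) with DATK32, 4127 CPM (4039 to 4216) with MECA-367 and 2030 CPM (1976 to 2086) with rat IgG. MECA-367 goblet cells stood alone above the other libraries, with log2 1.02 over rat IgG, and -1.09 for DATK32 over MECA-367. The gene is induced by type 2 cytokines and its protein kills bacteria. It was found in 61.0%, 71.8% and 59.6% of the cells, and after thinning every cell to 1000 UMIs in 41.5%, 56.7% and 45.8%, against 0.401%, 0.753% and 0.411% of leukocytes. Without the 46 mixed barcodes the level was 1947, 4330 and 2123 CPM. At the 5% product limit the MECA-367 to rat IgG ratio was 0.55 and not called. Without the 5 cells that held most of it in each library it was 1593, 3552 and 1776 CPM.

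Reg4, a secreted lectin-like protein of the regenerating family that marks deep crypt secretory cells in the mouse colon, had 105 CPM (93.7 to 118) with DATK32, 592 CPM (559 to 626) with MECA-367 and 149 CPM (135 to 165) with rat IgG. It was higher in MECA-367 than in rat IgG (log2 1.98) and lower in DATK32 than in MECA-367 (-2.49). Few cells carried it, 40, 29 and 54, and 5 cells held 60.8% of the MECA-367 UMIs. Without the 5 highest cells of each library the levels were 35.4, 237 and 66.4 CPM. Other epithelium had 24.9, 14.03 and 17.9 CPM. Ang4, an antimicrobial ribonuclease, was at 11.1, 33.0 and 12.6 CPM (log2 1.36 for MECA-367 against rat IgG), and 1 cell held 52 of its 67 MECA-367 UMIs. Without the 5 highest cells of each library Ang4 was at 4.23, 2.52 and 5.81 CPM, with MECA-367 the lowest.

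Several products were lower with an antibody. Dmbt1, a glycoprotein that binds bacteria and mucus, was at 396 CPM (373 to 419) with DATK32, 278 CPM (256 to 302) with MECA-367 and 761 CPM (728 to 795) with rat IgG, lower with both antibodies (log2 -0.94 and -1.45). Without the mixed barcodes the levels were 398, 242 and 635 CPM and the calls held (-0.67 and -1.39). Other epithelium made far more of it, 3104, 3018 and 3424 CPM. Lypd8, which keeps flagellated bacteria from the epithelium, was at 391, 642 and 590 CPM, lower in DATK32 than in rat IgG (-0.59) and than in MECA-367 (-0.72). Muc5b, another gel-forming mucin, was at 21.5 CPM with DATK32, 4.43 with MECA-367 and 13.4 with rat IgG. It was lower in MECA-367 than in rat IgG (-1.49) and higher in DATK32 than in MECA-367 (2.15), with 62, 9 and 35 UMIs in all, and the call against rat IgG was kept in 6 of 10 settings. Muc13 and Muc4, membrane mucins, were at 607, 712 and 638 CPM and at 123, 127 and 125 CPM, with no call.

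Of 16 measured genes of epithelial defence and acute phase, 1 was higher and 6 were lower in DATK32 than in rat IgG (median log2 -0.19), 8 were higher and 1 lower in MECA-367 than in rat IgG (0.69), and 1 was higher and 8 were lower in DATK32 than in MECA-367 (-0.64). Leukocyte RNA moved with these counts. The 18 leukocyte markers summed to 547 CPM in DATK32, 3995 CPM in MECA-367 and 671 CPM in rat IgG goblet cells, with 1, 1 and 0 of them (Ms4a1) at 0, against 32323, 62433 and 26026 CPM in leukocyte barcodes. S100a8, a neutrophil gene on both lists, was at 36.8, 1247 and 129 CPM, and at 20.9, 34.8 and 10.9 CPM without the mixed barcodes. On the 1359 remaining members, 14 defence genes were measured; 1 was higher and 1 lower in DATK32 than in rat IgG, 6 were higher and 1 lower in MECA-367 than in rat IgG, 2 were higher and 5 lower in DATK32 than in MECA-367, and the medians were -0.08, 0.36 and -0.55. Of 10 measured leukocyte markers, 7 were higher in MECA-367 than in rat IgG, with a median log2 of 1.19; without the mixed barcodes 2 of 7 were higher, with a median of -0.26.

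The lectins Reg3b and Reg3g, which attack bacteria near the epithelium, were among the genes still called. Reg3b was at 270 CPM (251 to 289) with DATK32, 1580 CPM (1526 to 1636) with MECA-367 and 905 CPM (869 to 942) with rat IgG. Over all members 5 cells held 59.4% of its MECA-367 UMIs. Without the 5 highest cells of each library Reg3b was at 130, 664 and 509 CPM. Without the mixed barcodes it was at 272, 1067 and 315 CPM, so that the rat IgG level was mostly in those barcodes. On those members it was higher in MECA-367 than in rat IgG (log2 1.76) and lower in DATK32 than in MECA-367 (-1.97), and the call that was lower for DATK32 against rat IgG (-1.74) was lost (-0.21). The MECA-367 to rat IgG ratio changed sign when the mitochondrial limit was 5% (-0.57) or when every member with a leukocyte, stromal or endothelial UMI was left out (-0.17). Reg3g was at 61.1, 442 and 97.7 CPM (2.17 for MECA-367 against rat IgG). Without the mixed barcodes it was at 61.6, 410 and 45.0 CPM (3.18). At the 5% mitochondrial limit that Reg3g call was lost (0.43), and 5 cells held 47.6% of its MECA-367 UMIs. In thinned cells Reg3b was present in 7.26%, 23.8% and 9.32% of goblet cells, against 2.80%, 5.87% and 1.78% of leukocytes. Other epithelium held more of it, with 3407, 8470 and 1689 CPM.

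Ido1, a tryptophan-degrading enzyme, was higher in MECA-367 than in rat IgG (7.29, 25.6 and 6.13 CPM, log2 2.0), with its MECA-367 UMIs in 17 cells. Of these 52 UMIs, 32 lay in 1 cell and 76.9% in 5 cells. Without the 5 highest cells of each library Ido1 was at 0.704, 6.02 and 1.55 CPM. Lcn2, an iron-trapping protein made by epithelium and neutrophils, was at 1.74, 245 and 26.4 CPM and in 5, 20 and 14 cells. Of its MECA-367 UMIs, 70.5% lay in 5 cells. Without the 5 highest cells of each library Lcn2 was at 0, 75.4 and 6.62 CPM. In thinned cells it was present in 0%, 4.76% and 0.804% of goblet cells, against 13.5%, 30.0% and 9.32% of leukocytes. Duox2, the epithelial hydrogen peroxide generator, was at 128, 176 and 141 CPM and Pigr, which carries IgA into the lumen, at 2000, 1745 and 1907 CPM, neither with a call.

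Several interferon-stimulated genes were higher in goblet cells of both antibody libraries than in rat IgG goblet cells, and more were called for MECA-367. Of 23 measured, 4 were higher and 1 lower in DATK32 than in rat IgG (median log2 0.38), and 11 were higher and 0 lower in MECA-367 than in rat IgG (0.83). DATK32 over MECA-367 had 0 higher and 8 lower (-0.34). Over the 1359 other members, of 22 measured there were 4 higher and 1 lower for DATK32 and 9 higher and 0 lower for MECA-367, each over rat IgG, with medians of 0.39 and 0.66, and DATK32 over MECA-367 had 0 higher and 5 lower (-0.21). The DATK32 to rat IgG median was -0.09 over genes with at least 200 UMIs and -0.28 over members with at least 20 product UMIs and 5% of their UMIs in product genes, where the MECA-367 medians were 0.41 and 0.38. The other epithelium of the same libraries had 9 of 23 higher in DATK32 and 16 of 23 higher in MECA-367 than in rat IgG, with medians of 0.41 and 0.87, where 0.69% and 3.18% of all genes were called higher.

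Promoters of interferon-stimulated genes are known for the GAS motif TTCNNNGAA, tied to interferon gamma, and for the ISRE motif, searched as GAAA, any 2 bases and GAAA. The promoters of 4 of the genes are shown because 3 were called higher with both antibodies and the last, Psmb8, with MECA-367 only. Each run is from RefSeq on GRCm38.p6, 250 bases before to 50 after the gene's start, 5′ to 3′ on the gene's strand, with motif matches in capitals.
Irf1, chr11:53769764-53770063, plus strand: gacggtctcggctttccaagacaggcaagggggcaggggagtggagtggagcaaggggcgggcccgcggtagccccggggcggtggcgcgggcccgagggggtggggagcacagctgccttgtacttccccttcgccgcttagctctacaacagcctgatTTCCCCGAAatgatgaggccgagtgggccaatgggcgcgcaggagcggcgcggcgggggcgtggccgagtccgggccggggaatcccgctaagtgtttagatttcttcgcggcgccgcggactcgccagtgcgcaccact
Gbp7, chr3:142530086-142530385, plus strand: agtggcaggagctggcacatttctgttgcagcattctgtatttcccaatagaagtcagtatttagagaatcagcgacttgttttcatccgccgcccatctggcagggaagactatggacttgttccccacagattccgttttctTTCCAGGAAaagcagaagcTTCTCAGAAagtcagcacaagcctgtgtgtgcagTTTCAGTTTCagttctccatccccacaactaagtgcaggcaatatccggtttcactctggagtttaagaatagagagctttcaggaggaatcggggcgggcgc
Isg15, chr4:156200769-156201068, minus strand: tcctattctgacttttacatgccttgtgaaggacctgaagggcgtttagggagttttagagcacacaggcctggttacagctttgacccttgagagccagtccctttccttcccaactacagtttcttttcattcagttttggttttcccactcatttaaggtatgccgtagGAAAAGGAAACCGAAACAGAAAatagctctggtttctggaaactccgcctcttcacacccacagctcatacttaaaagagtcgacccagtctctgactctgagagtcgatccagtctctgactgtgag
Psmb8, chr17:34197945-34198244, plus strand: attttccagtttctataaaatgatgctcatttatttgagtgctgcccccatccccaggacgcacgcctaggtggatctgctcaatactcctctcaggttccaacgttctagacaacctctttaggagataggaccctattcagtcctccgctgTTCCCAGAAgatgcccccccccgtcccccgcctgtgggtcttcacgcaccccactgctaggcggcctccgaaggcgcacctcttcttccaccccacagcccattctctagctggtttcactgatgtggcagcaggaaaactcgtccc
Irf1 and Psmb8 had 1 GAS match each, beginning 90 and 97 bases before the start. Gbp7 had 2 GAS matches, at 106 and 87 bases before the start, and 1 ISRE match on the opposite strand at 53. Isg15 had 3 ISRE matches that overlap, at 78, 72 and 66 bases before the start.

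Of 18 measured interferon-stimulated genes with a promoter in the table, 8 (44.4%) held a GAS match on either strand, 10 (55.6%) an ISRE match and 14 (77.8%) at least 1 of them. Among all 27025 promoters of the table the shares were 8.42%, 3.49% and 11.4%, and among 7198 genes measured in goblet cells 6.61%, 2.88% and 9.07%. A match describes letters and not a bound site.

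Irf1, a transcription factor induced by interferon gamma, was at 411 CPM (388 to 435) with DATK32, 392 CPM (366 to 420) with MECA-367 and 217 CPM (199 to 235) with rat IgG. Both antibody libraries lay above rat IgG, with log2 0.92 and 0.85, and did not differ from each other by the call (0.07). Leaving the mixed barcodes out, the ratios were 0.92 and 0.83, and at the 5% product limit the DATK32 call was lost (0.33). It was found in 71.2%, 75.6% and 49.0% of cells, and after thinning in 29.7%, 33.7% and 19.1%, against 22.0%, 25.8% and 19.5% of leukocytes. Other epithelium showed 418, 355 and 207 CPM.

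The interferon-induced GTPases followed. Gbp7 was at 22.6, 22.1 and 7.66 CPM in DATK32, MECA-367 and rat IgG goblet cells (log2 1.51 and 1.49 against rat IgG). Its MECA-367 level was 13.8 CPM without the mixed barcodes, and that call was then lost (0.91). Iigp1 was at 59.4, 93.5 and 28.0 CPM, higher with both antibodies (1.08 and 1.73) and lower in DATK32 than in MECA-367 (-0.65). Igtp was at 7.99, 19.7 and 3.45 CPM and Gbp2 at 15.6, 32.5 and 10.7 CPM, both higher in MECA-367 than in rat IgG (2.40 and 1.57), as was Irgm1 at 47.2, 59.1 and 31.4 CPM (0.91). With mixed barcodes removed, Iigp1 was no longer called between the antibodies (-0.58). The Irgm1 call was kept in 9 of 13 settings, and was lost without members that carried a leukocyte, stromal or endothelial UMI (0.72). Isg15, a ubiquitin-like modifier, had 27, 24 and 7 UMIs, which is 9.38, 11.8 and 2.68 CPM (1.67 and 2.01). After thinning, each gene of this paragraph was in a smaller share of goblet cells than of leukocytes in every library. Gbp2 was in 1.45%, 2.38% and 0.643% of goblet cells, against 30.8%, 36.8% and 24.7% of leukocytes. Isg15 was in 0.622%, 0.397% and 0.161%, against 27.8%, 28.3% and 18.4%. The part of leukocyte RNA in these levels was not tested.

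Genes of the immunoproteasome and of peptide transport were called for MECA-367 against rat IgG and not for DATK32 against rat IgG. Psmb8, an immunoproteasome subunit, was at 29.5 CPM (23.6 to 36.5) with DATK32, 77.8 CPM (66.1 to 90.9) with MECA-367 and 37.1 CPM (30.1 to 45.3) with rat IgG. It was higher in MECA-367 than in rat IgG (log2 1.06) and lower in DATK32 than in MECA-367 (-1.39), and without the mixed barcodes these ratios were 0.98 and -1.35. Its partner Psmb9 was at 24.7, 54.1 and 30.3 CPM (0.83 and -1.13). Tap1, which carries peptides to MHC class I, was at 25.4, 31.0 and 15.7 CPM (0.97 for MECA-367 against rat IgG). Its call was lost at the 5% mitochondrial limit (0.74) and without members that carried a leukocyte, stromal or endothelial UMI (0.94), and that of Psmb9 at the 5% mitochondrial limit (0.69), at the 5% product limit (1.30) and in thinned cells (0.93). Trim15, a ubiquitin ligase family member, was at 10.1, 28.5 and 12.3 CPM (1.20). Ifi27 went the other way for DATK32, at 20.1, 35.9 and 34.5 CPM (-0.77, kept in 8 of 12 settings). Rsad2 was at 89.6, 88.6 and 99.6 CPM, with no call. In thinned cells Psmb8 was in 3.73%, 7.94% and 3.86% of goblet cells, against 27.4%, 27.5% and 24.8% of leukocytes. Trim15 was in 0.622%, 3.97% and 1.45% of goblet cells, against 0.134%, 0% and 0% of leukocytes.

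**Figure D4:**
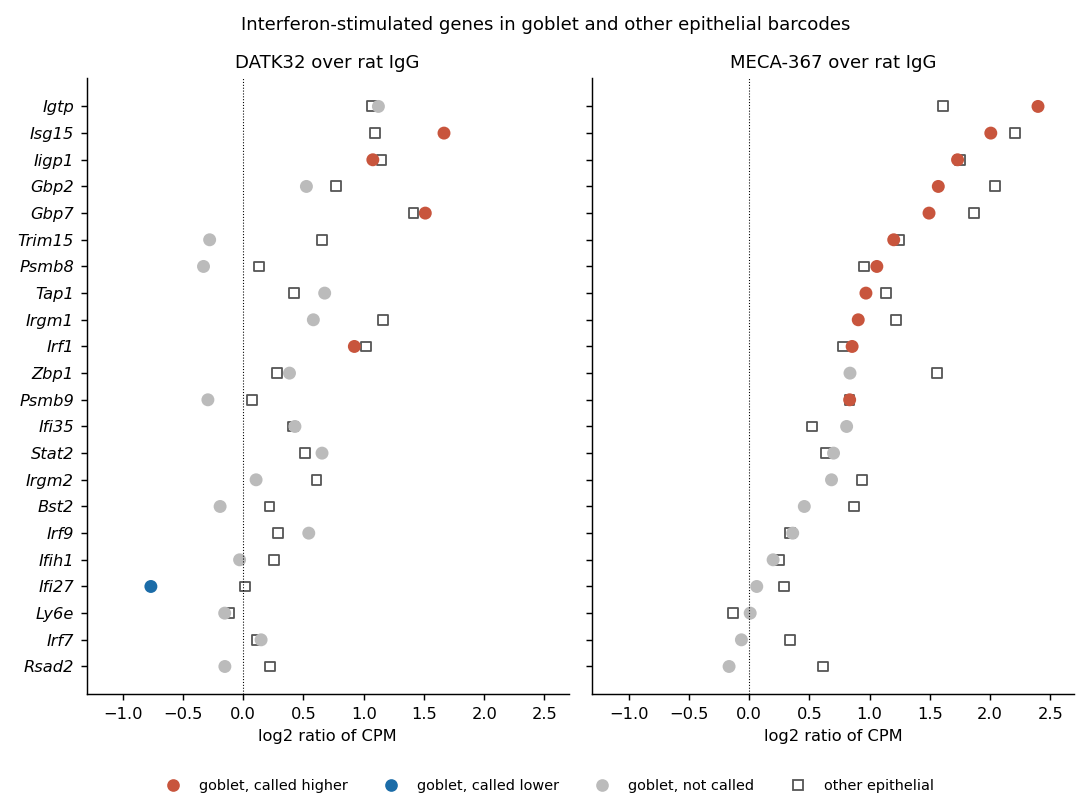
Log2 ratios of 22 of the 23 measured interferon-stimulated genes, over all members, in goblet cells (circles, coloured where called) and in the other epithelium of the same libraries (open squares), for each antibody over rat IgG. In goblet cells 4 are called higher for DATK32 and 11 for MECA-367.

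Of 6 measured genes of MHC class II presentation, 0 were higher and 1 lower in DATK32 than in rat IgG, 2 were higher and 0 lower in MECA-367 than in rat IgG, and 0 were higher and 2 lower in DATK32 than in MECA-367, with medians of -0.49, -0.10 and -0.64. Over the 1359 other members 3 were lower in DATK32 than in rat IgG, with the other counts as before. Cd74, the invariant chain, was at 49.0, 123 and 70.1 CPM (log2 0.80 for MECA-367 over rat IgG, -1.32 for DATK32 over MECA-367), and at 40.0, 98.3 and 65.1 CPM without the mixed barcodes. H2-DMb1, a peptide loading chain, was at 11.5, 21.7 and 8.81 CPM (1.27 for MECA-367, not called without members that carried a leukocyte, stromal or endothelial UMI), while H2-Aa was at 8.33, 12.8 and 18.8 CPM, lower in DATK32 than in rat IgG (-1.14). Leukocyte barcodes held 1920, 1696 and 2900 CPM of Cd74, and the part of their RNA in these levels was not tested.

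Some genes of the signals that goblet cells send were called. Over all measured genes, 0.657% were higher and 1.48% lower in DATK32 than in rat IgG. The shares were 1.85% and 2.77% for MECA-367 against rat IgG, and 2% and 2.26% for DATK32 against MECA-367. Of 20 measured cytokine and chemokine genes, 1 was higher and 1 lower in DATK32 than in rat IgG, 2 were higher and 0 lower in MECA-367 than in rat IgG, and 2 were higher and 2 lower in DATK32 than in MECA-367, with medians of 0.05, 0.13 and 0.02. Leaving the mixed barcodes out, the counts were 2 higher and 1 lower, 2 higher and 1 lower, and 3 higher and 1 lower in the same comparisons. Cxcl2, a neutrophil attractant, was among them, at 80.2, 219.5 and 84.3 CPM over all members (log2 1.38 for MECA-367 over rat IgG) and at 71.5, 31.5 and 58.7 CPM without the mixed barcodes, where its MECA-367 call turned to lower (-0.88). Leukocyte barcodes held 2522, 4370 and 1739 CPM of Cxcl2. Cxcl10, a ligand of CXCR3 on T cells that interferon gamma induces, was higher with both antibodies, at 157, 154 and 73.2 CPM (log2 1.09 and 1.07). With mixed barcodes removed, it was at 158, 107 and 62.3 CPM (1.34 and 0.77), and at the 5% product limit the DATK32 ratio was -0.47. After thinning it was present in 9.54%, 8.33% and 4.50% of goblet cells, below the 32.2%, 37.7% and 24.4% of leukocytes, and these shares are not read as expression. Ccl6 was at 1066, 1371 and 1044 CPM, and the growth factor gene Areg at 398, 446 and 388 CPM, neither with a call.

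Of 8 measured genes of the type 2 cytokine response, 1 was higher in DATK32 than in rat IgG and 3 were higher in MECA-367 than in rat IgG, Retnlb, Slc5a9 and Chil3, with none lower (medians 0.17 and 0.39). DATK32 over MECA-367 had 0 higher and 2 lower (median 0.04). Chil3, a macrophage and neutrophil gene in mice, had 51 MECA-367 UMIs in 7 cells, and 13.2%, 19.4% and 5.89% of thinned leukocytes carried it. Over the 1359 other members it was not measured, and of 7 genes 1 was higher in DATK32 than in rat IgG, 2 were higher in MECA-367 than in rat IgG and 1 was lower in DATK32 than in MECA-367. Slc5a9, a sodium-coupled sugar transporter, was at 16.7, 16.7 and 5.74 CPM from 48, 34 and 15 UMIs, higher with both antibodies (1.47 and 1.49). The receptor genes Il4ra and Il13ra1 were at 36.5, 34.0 and 37.9 CPM and at 57.7, 53.7 and 55.9 CPM, with no call.

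Some genes of the Notch pathway and of the crypt base were called. The shares over all genes were 0.657% higher and 1.48% lower for DATK32 against rat IgG. They were 1.85% and 2.77% for MECA-367 against rat IgG, and 2% and 2.26% for DATK32 against MECA-367. Of 14 Notch genes, 1 was higher in DATK32 than in rat IgG, 1, Hes1, was lower in MECA-367 than in rat IgG and higher in DATK32 than in MECA-367, with medians of 0.07, -0.15 and 0.20. Hes1 was at 209.8, 136 and 205 CPM (log2 -0.59 for MECA-367 over rat IgG, 0.62 for DATK32 over MECA-367), and both calls were lost without the mixed barcodes (-0.46 and 0.54), where 0 of 13 Notch genes were called in these comparisons. Dll1, the Notch ligand of secretory progenitors, was at 33.0 CPM (26.7 to 40.3) with DATK32, 21.2 CPM (15.3 to 28.5) with MECA-367 and 15.7 CPM (11.3 to 21.3) with rat IgG. It was called for DATK32 against rat IgG (log2 1.05), with 7.60, 8.63 and 7.09 CPM in other epithelium. Its relative Dll4 was at 32.6, 36.9 and 26.0 CPM, with no call. Of 16 crypt base and stem genes, Dll1 was the 1 gene called higher for DATK32 and Reg4 the 1 called higher for MECA-367 against rat IgG, with medians of 0.10 and -0.04. For DATK32 over MECA-367, 1 was higher and 1 lower (median 0.17), and the higher one was Kit, a receptor that marks deep crypt secretory cells in the mouse colon, at 285, 173 and 239 CPM (0.72, kept in 9 of 13 settings). Leaving the mixed barcodes out, Reg4 was also called lower in DATK32 than in rat IgG (-0.68).

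Of 13 genes of surface and intercrypt goblet cells, 0 were higher and 3 lower in DATK32 than in rat IgG, 0 were higher and 5 lower in MECA-367 than in rat IgG, and 2 were higher and 2 lower in DATK32 than in MECA-367 (medians -0.08, 0.03 and -0.14). With mixed barcodes removed, 3 were lower in MECA-367 than in rat IgG, and 2 were higher and 1 lower in DATK32 than in MECA-367. Dmbt1 and Muc3 were among the lower genes with both antibodies, and both were higher in other epithelium than in goblet cells. Guca2a, the precursor of guanylin, was at 1758, 1742 and 1712 CPM. Of 28 oxidative phosphorylation genes only Atp5k was called in any comparison, and of 25 immediate-early and heat shock genes, 1 was lower for DATK32 (Hsph1) and 2 were lower for MECA-367 (Hsph1 and Hspa1b) against rat IgG, with 0 called in DATK32 against MECA-367. The Hsph1 call was kept in 4 of 13 settings for DATK32 and in 7 of 13 for MECA-367, and the Hspa1b call in 7 of 13. Stromal and endothelial markers (14 genes, with the endothelial gene Cdh5 at 0 in every library) summed to 79.9, 140 and 174 CPM in goblet cells, against 23371, 19334 and 24132 CPM in stromal barcodes. Their 7 measured members had 0 higher and 3 lower in DATK32, and 1 higher and 3 lower in MECA-367, against rat IgG (medians -0.84 and -0.27), and 1 higher and 2 lower in DATK32 against MECA-367 (-0.41). Over the 1359 other members 6 were measured, with 0 higher and 3 lower, 1 higher and 1 lower, and 0 higher and 4 lower in the same comparisons. Markers of 15 enteroendocrine, tuft and squamous genes summed to 12.8, 9.35 and 48.6 CPM, with the squamous gene Krt14 at 2.43, 0.492 and 19.9 CPM, and Avil was at 0 in all libraries.

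**Figure D5:**
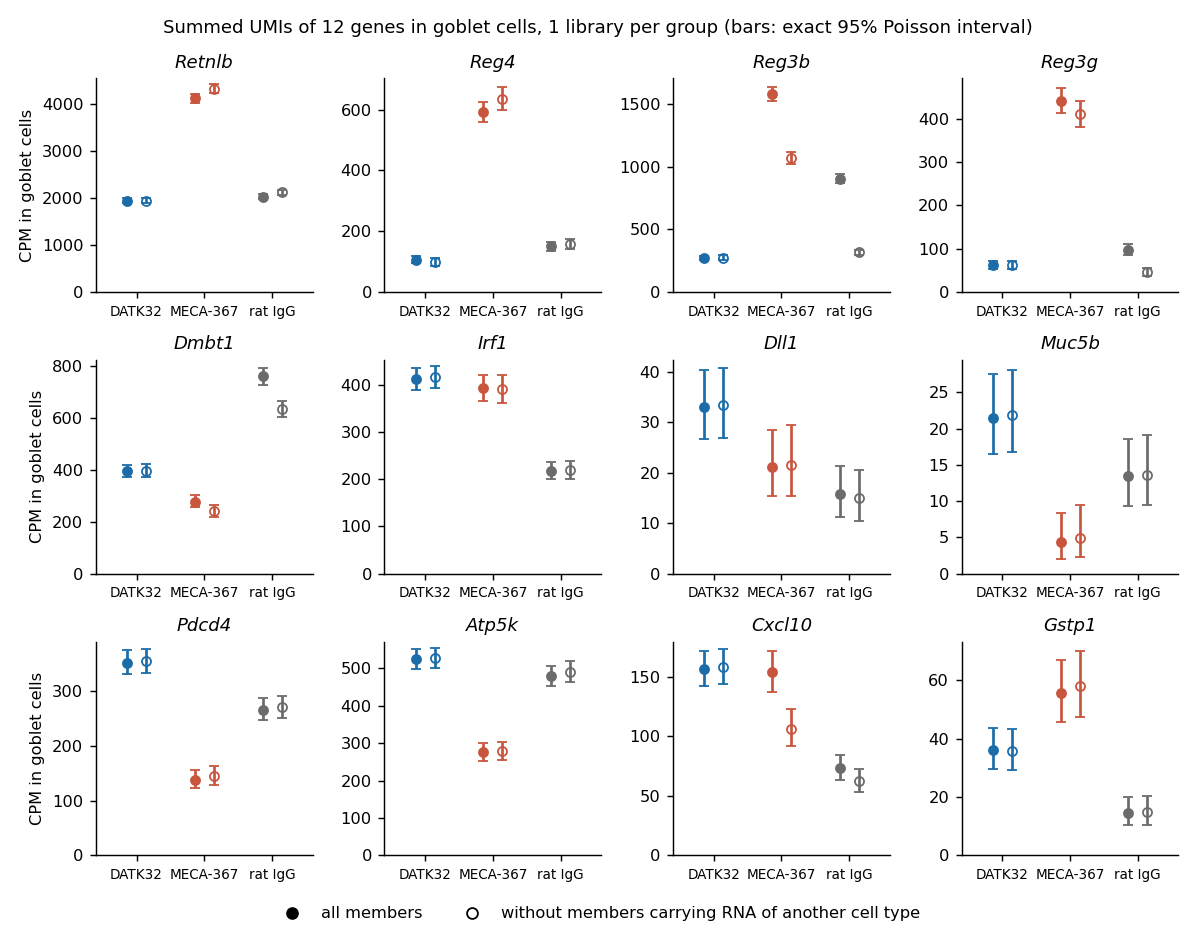
Level of 12 genes in goblet cells of each library, in CPM with exact Poisson 95% intervals, for all members (filled) and without the 46 mixed barcodes (open). Retnlb and Reg4 are highest with MECA-367, Irf1 is high with both antibodies, and the rat IgG point of Reg3b lies at 905 with all members and at 315 without the mixed barcodes.

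Genes with the largest called ratios by the naming rule fell outside these lists for the most part. In DATK32 against rat IgG the highest were Gstp1, Dll1, Samd5, Wfdc18, Glcci1 and Irf1. Gstp1, a glutathione transferase with near-identical copies that could share its reads, was at 36.1, 55.6 and 14.6 CPM (log2 1.29, and 1.91 for MECA-367). Other epithelium had 37.8, 55.4 and 20.5 CPM. Wfdc18, a small secreted protein with a WAP domain, was at 69.5, 73.8 and 33.7 CPM (1.03, and 1.12 for MECA-367). Samd5 was at 28.1, 20.7 and 13.4 CPM (1.05) and Glcci1 at 41.7, 23.6 and 20.7 CPM (log2 1.0). The lowest were Cela1, Clps, Reg3b, Sycn, Pdk4 and Spink1. Cela1 and Clps, an elastase and the cofactor of pancreatic lipase, were at 31.6, 152 and 540 CPM and at 85.4, 360 and 563 CPM, but at 31.9, 39.8 and 40.6 CPM and at 86.0, 61.8 and 80.8 CPM without the mixed barcodes, where neither was called. Sycn was at 197 CPM with DATK32 and 516 CPM with rat IgG (log2 -1.39), and Spink1 at 92.7 and 182 CPM (-0.97). Both of these calls were lost without the mixed barcodes. Pdk4, a kinase that turns off pyruvate dehydrogenase, was at 23.3, 61.0 and 46.0 CPM (-0.97, and -1.38 for DATK32 against MECA-367).

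In MECA-367 against rat IgG the highest included Lgals2, Reg4, Gstp1, Sct and Mmp7. Lgals2, a galectin, was at 7.64, 81.2 and 7.66 CPM (log2 3.34), with 74.5% of its MECA-367 UMIs in 5 of 29 positive cells. Sct, the precursor of secretin, was at 30.6, 73.3 and 26.8 CPM (1.44), with 57.0% of its MECA-367 UMIs in 5 cells, and without these 5 highest cells of each library at 22.3, 32.1 and 20.1 CPM. Mmp7, a metalloprotease that activates defensins in mice, was at 33.0, 75.8 and 30.6 CPM (1.30). In other epithelium the MECA-367 to rat IgG ratio was 1.40 for Mmp7, 1.43 for Gstp1 and 0.86 for Lgals2. It was -0.34 for Reg4 and -0.23 for Sct. The lowest were Cela1, Nmt1, Gigyf1, Rcbtb1, Tmem250-ps and Slc5a3. Nmt1, a protein myristoyltransferase, was at 80.2, 44.8 and 125 CPM (-1.47). Slc5a3, a myo-inositol transporter, was at 44.8, 32.5 and 72.0 CPM (-1.13). Gigyf1, Rcbtb1 and Tmem250-ps had ratios of -1.45, -1.15 and -1.14.

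In DATK32 against MECA-367 the highest were Arhgap20, Pdcd4, Tsix, Sult1c2, Tppp and Pdzk1ip1, and the lowest Lgals2, Reg4, Cela1, Clps, Sval1 and Pdk4. Pdcd4, an inhibitor of translation, was at 352 CPM (331 to 374) with DATK32, 138 CPM (123 to 156) with MECA-367 and 266 CPM (246 to 286) with rat IgG. MECA-367 was the low library, with log2 1.34 for DATK32 over MECA-367 and -0.94 for MECA-367 over rat IgG. Arhgap20 was at 34.0, 12.3 and 26.4 CPM (1.43). Tsix, the antisense RNA of Xist, was at 85.8, 36.9 and 81.6 CPM (1.20), and reads of the overlapping pair cannot be told apart unless strand was used in counting. Sult1c2, a sulfotransferase, was at 59.0, 25.6 and 39.8 CPM (1.19), Tppp at 31.6, 14.3 and 23.0 CPM (1.11) and Pdzk1ip1 at 36.1, 16.7 and 27.6 CPM (1.08). Most of these genes were also higher in the other epithelium of DATK32 than of MECA-367. The log2 ratios there were 0.64 for Arhgap20, 0.70 for Pdcd4, 0.65 for Tsix, 0.91 for Sult1c2, 0.09 for Tppp and 0.98 for Pdzk1ip1. Sval1, a secreted protein, was at 63.9, 181 and 123 CPM (-1.50). Of its 368 MECA-367 UMIs, 139 lay in 1 cell and 75.5% in 5 cells. Without the 5 highest cells of each library Sval1 was at 32.4, 45.9 and 93.3 CPM, with MECA-367 below rat IgG.

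Some of these genes moved in every cell class of a library. Atp5k, a subunit of ATP synthase, was at 525, 276 and 478 CPM in DATK32, MECA-367 and rat IgG goblet cells (0.93 for DATK32 against MECA-367), at 574, 279 and 553 CPM in other epithelium, at 279, 111 and 210 CPM in leukocytes and at 372, 133 and 232 CPM in stromal barcodes, each in the order DATK32, MECA-367 and rat IgG. Nmt1 was at 149, 78.8 and 183 CPM in other epithelium and 115, 51.7 and 142 CPM in leukocytes. Reg4, Sct and Muc5b were at 24.9, 10.4 and 0.534 CPM at most in the other epithelium of any library.

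Goblet cells also varied among themselves, by how much of their RNA was in the product genes. The share ran from 1.003 to 12.6% in DATK32, 1.01 to 26.7% in MECA-367 and 1.01 to 16.6% in rat IgG cells, with medians of 3.13%, 2.98% and 2.79%. The cells of each library were cut into tertiles of that share, of 164, 163 and 163 cells, 88, 87 and 87 cells, and 218, 217 and 218 cells. Since the product genes set the order, only other genes are described. Retnlb climbed with the share in all libraries, at 845, 1876 and 3141 CPM from the lowest to the highest tertile with DATK32, at 2731, 3950 and 5862 CPM with MECA-367 and at 512, 1910 and 3909 CPM with rat IgG. Klk1 climbed as well, at 2048, 3590 and 5023 CPM, at 2102, 3368 and 5295 CPM, and at 2213, 3253 and 4542 CPM. B3gnt6 was at 32.6, 88.1 and 202 CPM, at 33.9, 89.0 and 149 CPM, and at 36.6, 72.0 and 154 CPM.

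Reg4 was concentrated in the highest tertile, at 13.8, 88.1 and 216 CPM with DATK32, 117, 162 and 1577 CPM with MECA-367 and 37.7, 38.9 and 398 CPM with rat IgG. Hes1, the Notch target that opposes secretory fate, was lower where product share was high, at 280, 206 and 140 CPM, at 157, 144 and 103 CPM, and at 256, 202 and 149 CPM. Hspa5 was at 1948, 1935 and 1649 CPM, at 2638, 2200 and 1795 CPM, and at 2036, 2019 and 1911 CPM, so the folding chaperone was not highest in the cells with most product RNA. Spdef was at 343, 425 and 383 CPM, at 332, 435 and 466 CPM, and at 387, 499 and 555 CPM. Dll1 in rat IgG cells was at 25.8, 16.0 and 3.72 CPM, and in DATK32 cells at 35.6, 34.6 and 28.8 CPM. The DATK32 pattern depended on the cut. In the bins of product share that the tertiles replaced, DATK32 Dll1 was at 38.2 CPM (30.5 to 47.3) at 1 to 5%. It was lower, at 16.1 CPM (8.06 to 28.9), at 5 to 15%. Dll1 by tertile is not given here for MECA-367 cells.

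Pairs of genes were also compared over single cells, on the 484, 246 and 629 members without mixed barcodes. The Spearman correlation of Reg3b with Reg3g was 0.45, 0.43 and 0.33 in the DATK32, MECA-367 and rat IgG libraries, and that of Reg3b with Dmbt1 was 0.28, 0.34 and 0.33. Dll1 with Dll4 gave 0.08, 0.11 and -0.02. Cells of a library differ in depth and share its free RNA, and these values are a description.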

How the data were processed

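Cells were profiled with droplet single-cell RNA-seq in 3 libraries, 1 for each of DATK32, MECA-367 and rat IgG. Per the labels, the chemistry was the Chromium 3′ kit and all libraries shared 1 sequencing lane. Per the submitters' processing notes, reads were processed with Cell Ranger 6.0.2 on mm10. The authors deposited whole-number UMI counts per gene and barcode, unnormalized, with 32285 genes and 27658 barcodes.

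Barcodes with at least 500 UMIs, at least 200 genes and at most 10% mitochondrial UMIs were kept. The members and gene lists were chosen with earlier results of these data known. Counts were summed over the goblet cells of a library and scaled to CPM of that sum with exact Poisson 95% intervals, and log2 ratios had 1 count added to each sum. Genes with at least 50 summed counts were compared, without mitochondrial genes and the 15 genes of the rule. A call needs a 1.5-fold difference and intervals apart; it is no test and carries no p-value. Shares have exact Clopper-Pearson intervals. Intervals cover counting error only. Comparator barcodes were other epithelium (3 or more UMIs of Epcam, Krt8 and Krt19, under 1% product UMIs), leukocytes (a Ptprc UMI and no epithelial UMI) and stromal cells (3 or more collagen UMIs).

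Genes outside the lists were named by a rule: in each comparison the 6 highest and 6 lowest called ratios among genes with at least 100 counts over both libraries, a UMI in at least 10% of goblet cells of the higher library, and a level there at least 0.5 times that of each comparator class. Ribosomal, immunoglobulin and unnamed-model genes were left out. Some genes that the rule or the lists hold are not reported here. Examples from the lists were chosen after their values were seen, as were the groups of mixed barcodes and the tertiles, which replaced bins of 1 to 5%, 5 to 15% and 15% or more of product share because only 0, 6 and 4 DATK32, MECA-367 and rat IgG cells fell in the last. No doublet caller was run; members with UMIs of other cell types were left out as an alternative. The comparison was tested on simulated data before use. Those data were Poisson draws, so they could not show errors from variation between cells or libraries. Python 3.11.15, numpy 2.4.6, pandas 2.3.3, scipy 1.17.1 and matplotlib 3.10.9 were used.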

Additional observations from a re-analysis of the deposited data

How the results depend on the processing

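Directions and calls of the shares and lists were compared under other settings, of which 2 were chosen after seeing the data and left out members with pancreatic enzyme RNA or with RNA of any other cell type. No paired analysis was possible because each group has 1 library, and for the same reason leaving out a library was not an option; the cause of each change below was not tested. Low UMI numbers limit genes under about 50 counts, and cells of differing depth limit shares of positive cells.

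On the log2 scale, the DATK32 to MECA-367 share of kept barcodes was 0.49 at a mitochondrial limit of 5%. The epithelial share ratios became called when members with leukocyte, stromal or endothelial UMIs were left out (-0.78 for MECA-367 against rat IgG, 0.79 for DATK32 against MECA-367) and at 1 epithelial UMI (-0.61 for MECA-367 against rat IgG).

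Counts of called genes moved most. In DATK32 against rat IgG, genes higher numbered 32 at the 5% product limit, 147 as a mean over cells, 19 thinned and 31 at 200 counts, against 59; genes lower numbered 58, or 58 at a 5% mitochondrial limit, 49 thinned and 77 at 200 counts, against 133. In MECA-367 against rat IgG, genes higher numbered 50 at the 5% product limit, 100 without leukocyte, stromal or endothelial UMIs, 259 as a mean over cells, 58 thinned and 93 at 200 counts, against 166; genes lower numbered 164 at the 2% and 68 at the 5% product limit, 95 at the mitochondrial limit and 64 thinned. In DATK32 against MECA-367, genes higher numbered 116 at the 5% product limit, 102 at the mitochondrial limit, 359 as a mean over cells and 51 thinned, against 180. Genes lower numbered 89, 114, 311 and 88 in these settings, 103 without leukocyte, stromal or endothelial UMIs, 124 without RNA of another cell type and 125 at 200 counts, against 203.

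The defence median was 0.13 for DATK32 and 0.059 for MECA-367 against rat IgG at the 5% product limit. For MECA-367 it was 0.34 at the mitochondrial limit, 0.19 without leukocyte, stromal or endothelial UMIs, 1.02 with dividing cells kept and 0.36 without RNA of another cell type. For DATK32 against MECA-367 it was -0.28 and -0.27 at the 2% and 5% product limits. The interferon median was -0.28 for DATK32 and 0.38 for MECA-367 at the 5% product limit, and -0.091 and 0.41 at 200 counts. The leukocyte marker median for MECA-367 was -0.26 without RNA of another cell type.

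Single genes that changed sign follow. Cela1 in MECA-367 against rat IgG was 1.78 at the 2% and 0.27 at the 5% product limit. Clps was 0.24 at the 5% limit, 0.10 without enzyme RNA and 0.089 without RNA of another cell type in DATK32 against rat IgG, and 1.97 at the 2% limit in MECA-367 against rat IgG. In DATK32 against MECA-367 it was 0.59 at the 5% limit, 0.49 without leukocyte, stromal or endothelial UMIs, 0.45 without enzyme RNA and 0.47 without RNA of another cell type. Cxcl10 for DATK32 was -0.47 and Reg3b 2.35 at the 5% limit; Reg3b for MECA-367 was -0.57 at the mitochondrial limit and -0.17 without leukocyte, stromal or endothelial UMIs. Reg3g for DATK32 was 0.49 and 0.39 at the 2% and 5% limits, 0.061 with dividing cells, 0.45 without enzyme RNA and 0.45 without RNA of another cell type. S100a8 for DATK32 was 0.30 and 1.90 at the 2% and 5% limits, 2.55 at the mitochondrial limit, 0.13 with dividing cells and 0.92 without RNA of another cell type. At the mitochondrial limit Slc5a3 was 0.14 for DATK32 and 0.033 for MECA-367 against rat IgG, and Sval1 was 0.20 for DATK32 against MECA-367. Car1 was 0.88 at the 5% product limit in MECA-367 against rat IgG, and -1.34 and -0.86 at the 2% and 5% limits and -0.26 thinned in DATK32 against MECA-367. Without leukocyte, stromal or endothelial UMIs and without RNA of another cell type, Cxcl2 was -0.24 and -0.88 in MECA-367 against rat IgG and 0.62 and 1.17 in DATK32 against MECA-367, and Mxd1 was 0.50 and 0.77 in DATK32 against MECA-367. Hes1 was -0.048 at the 5% product limit in DATK32 against MECA-367, and Muc3 0.098 with dividing cells in DATK32 against rat IgG. Tff2 was 4.74 and 5.44 at the 2% and 5% limits, 4.88 without enzyme RNA and 4.86 without RNA of another cell type in DATK32 against rat IgG, and 4.48 and 0.055 at the 2% and 5% limits in MECA-367 against rat IgG. Of 141 called ratios of named genes, 105 lost their call in at least 1 setting, most often at the 5% product limit (49 of 90 measured) and at the 2% product limit (42 of 131); 40 of 102 lost it at the 5% mitochondrial limit and 38 of 80 thinned.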

Other observations

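St6galnac1, the enzyme that makes the sialyl-Tn sugar on goblet mucin, had 0 UMIs in the 1405 goblet cells, which allows up to 0.214% of cells with a UMI. All 19109 kept barcodes held 4 UMIs of it, 1 in the DATK32 library, 2 in the MECA-367 library and 1 in the rat IgG library. St6galnac6, another sialyltransferase, was at 345, 345 and 386 CPM in DATK32, MECA-367 and rat IgG goblet cells.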
